A study of Mus musculus with 12 samples.

Results

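The genes described here are 10 genes commonly used to mark reactive astrocytes: GFAP, VIM, SERPINA3N, LCN2, CD44, OSMR, S1PR3, ASPG, NES and CD109. They were chosen by name, and their rows were taken from a table of group values that lists 13647 genes above the lesion and 12338 below it. All 10 genes were listed above the lesion and 8 below it, where VIM and NES were not listed. The RNA-seq was performed on spinal cord segments of male mice aged 4 months in which human ApoE4 replaced the mouse gene product, 14 days after the cord was contused at thoracic level 9. Mice with both synj1 alleles intact (synj1+/+) were compared with mice in which one synj1 allele was inactive (synj1+/-), and tissue was taken above and below the lesion, which gave 4 groups of 3 libraries and 12 libraries in all. All groups were ApoE4 and injured, so none of these values shows the genes without a contusion or with ApoE3, and segments above and below the lesion may come from the same mice. Bulk tissue was sequenced, and fewer cells of a type cannot be told apart from less RNA per cell.

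The table gives 1 value per group, which combines its 3 libraries, so there was no spread between libraries and no difference could be tested. Levels are given as FPKM, fragments counted per length of transcript and per depth of library, with upper quartile scaling within each site. Changes are given as the log2 ratio of FPKM plus 1 in the group with the synj1+/- label over the group with the synj1+/+ label, a scale that understates the change of low genes. A ratio of 1.5-fold or more in either direction was taken as past the fold, which is a rule of size and not a test. The targeted gene runs against the genotype labels. SYNJ1 was listed at 1904 FPKM in the group with the synj1+/+ label and 2403 in the group with the synj1+/- label above the lesion, and at 1846 and 2592 below it. The log2 ratios were 0.34 and 0.49. All listed neuron markers, described further on, were also higher under the synj1+/- label, with median log2 ratios of 0.12 above and 0.29 below. Whether the SYNJ1 values follow that difference was not tested. Per the study's methods the mice were genotyped by PCR, and each direction below is for groups as they are labelled.

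Astrocytes are the glial cells that buffer ions, take up glutamate and contact blood vessels, and after an injury they enlarge their processes and turn on a set of genes that mark the reactive state. Near a contusion they form the border of the glial scar around inflamed tissue. Cytokines of the gp130 family, such as oncostatin M, LIF and CNTF, activate STAT3 in these cells and are among the known inducers of GFAP. The labelled tissue had the defining markers of astrocytes. Of 13 such markers, 13 were listed above the lesion and 12 below it, none at 0 in any group. The water channel AQP4 was at 2343 and 1916 FPKM above and 2272 and 1724 below, in the order synj1+/+ then synj1+/-. AQP4 was the most abundant of them at both sites under the synj1+/+ label. Under the synj1+/- label ALDOC was, at 1977 FPKM above and 2091 below.

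Most of the reactive astrocyte genes were listed lower in the groups with the synj1+/- label. Above the lesion 9 of 10 were lower and 1, LCN2, was higher, with a median log2 ratio of -0.32 against a median near 0 (-0.0039) over all listed genes. Below the lesion 7 of 8 were lower and again LCN2 alone was higher, with a median of -0.45 against 0.014 over all genes. Of all genes, 51.0% were lower above the lesion and 47.2% below it. These differences were mostly small. Past the fold there was 1 member of 10 above the lesion, SERPINA3N, which was lower, beside 1.94% of all genes that were lower by that much and 0.791% that were higher. Below the lesion there were 2 of 8, OSMR lower and LCN2 higher, beside 4.38% of all genes lower and 1.16% higher. At a lower limit, a log2 ratio of 0.32 in size, 5 of 10 members were lower above the lesion, where 7.45% of all genes were, and 6 of 8 were lower below it, where 11.5% of all genes were.

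**Figure D1:**
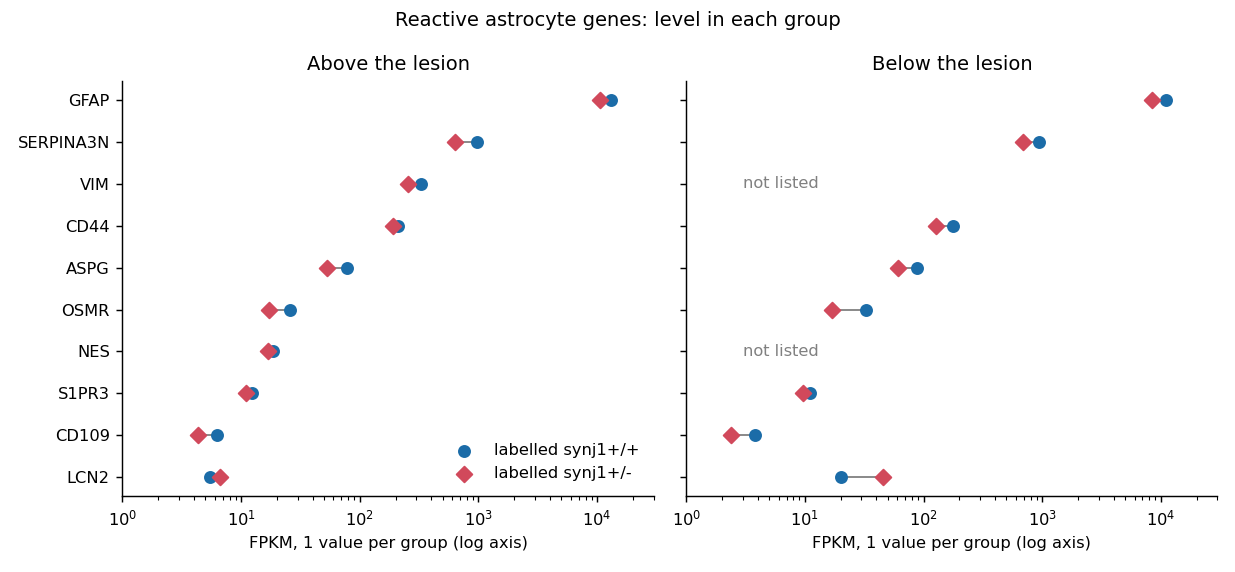
FPKM of each reactive astrocyte gene on a log axis, above (left) and below (right) the lesion, with a circle for the group with the synj1+/+ label and a diamond for the group with the synj1+/- label. Each point is 1 group value from 3 libraries, so there are no error bars. The diamond lies to the left of the circle for every listed gene but LCN2.

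GFAP, VIM and NES encode intermediate filament proteins: GFAP is the main one of mature astrocytes, VIM partners it, and NES is typical of neural progenitors and reappears in reactive cells. GFAP (chr11:102887336-102900912 in the GRCm38 annotation of GENCODE, minus strand) was the most abundant member. Above the lesion it was at 12974 FPKM in the group with the synj1+/+ label and 10583 in the group with the synj1+/- label, and it ranked 1 and 3 among the listed genes of these groups. Below the lesion it was at 11116 and 8484 FPKM, at ranks 2 and 4. The log2 ratios were -0.29 above and -0.39 below, 1.23-fold and 1.31-fold lower, short of the fold at both sites. GFAP was thus among the highest listed genes in all 4 groups, and 8.90% of all genes above and 8.83% below had a ratio as low or lower. VIM (chr2:13573927-13582826, plus strand) was at 327 FPKM in the group with the synj1+/+ label and 256 in the group with the synj1+/- label above the lesion, a log2 ratio of -0.35. NES (chr3:87971078-87980451, plus strand) was at 18.6 and 16.9 FPKM there, a log2 ratio of -0.13, and was far less abundant per length than GFAP or VIM.

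Other intermediate filament genes did not share this direction at both sites. Of the 8 genes in that list 7 were listed at each site, among them the neurofilament chains NEFL, NEFM and NEFH, the neuronal filaments INA and PRPH, and PLEC, a plectin that links filaments to the cytoskeleton. Their median log2 ratio was -0.05 above the lesion and 0.19 below it. None was past the fold above. Below, DES, the desmin of muscle and mural cells, was lower at 1.85 and 0.530 FPKM, a level near the bottom of the table. NEFM, the most abundant of the list, was at 1001 and 976 FPKM above and 1140.4 and 1307 below. SYNM, a synemin that binds GFAP and vimentin, was listed above the lesion at 78.2 and 65.6 FPKM, a log2 ratio of -0.25.

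SERPINA3N and LCN2 encode secreted proteins, a serine protease inhibitor and a lipocalin that binds iron-loaded siderophores. SERPINA3N (chr12:104406729-104414329, plus strand) was the second most abundant member. Above the lesion it was at 972 FPKM in the group with the synj1+/+ label and 637 in the group with the synj1+/- label, a log2 ratio of -0.61 and the lowest of the 10 members there. Below the lesion it was at 942 and 693 FPKM, a log2 ratio of -0.44. It was thus lower under the synj1+/- label at both sites, past the fold above the lesion and short of it below. SERPINA3N lies in a cluster of closely related genes whose reads can be divided between copies, and the listed copies moved with it: SERPINA3G, SERPINA3I and SERPINA3M had log2 ratios of -0.39, -0.59 and -0.65 above and -0.39, -0.85 and -0.69 below. The most abundant of these, SERPINA3G, was at 29.2 and 22.1 FPKM above the lesion, against 972 and 637 for SERPINA3N. Of the 9 genes in the list of lipocalin 2 receptors and Serpina3 copies, these 3 were the ones listed, with 2 past the fold and lower at each site, SERPINA3I and SERPINA3M.

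LCN2 (chr2:32384633-32388252, minus strand) was the exception among the members. Above the lesion it was at 5.49 FPKM in the group with the synj1+/+ label and 6.59 in the group with the synj1+/- label, a log2 ratio of 0.23. Below the lesion it was at 20.3 and 45.4 FPKM, a log2 ratio of 1.12 or 2.17-fold higher, and 99.9% of all genes listed below had a ratio as low or lower. Above the lesion LCN2 and CD109 were the least abundant members, while below it LCN2 stood above OSMR and S1PR3 in the group with the synj1+/- label. Whether its change below differs from its change above was not tested. LCN2 is also made in quantity by neutrophils. Of 8 neutrophil markers, 2 were listed above the lesion with a sum of 3.87 and 4.19 FPKM, and 3 were listed below it with a sum of 20.1 and 13.0 FPKM. The most abundant, S100A9, was at 13.4 and 9.86 FPKM below, and S100A8 was at 5.41 and 2.04, while LY6G, MPO, ELANE, CAMP and LTF were not listed at either site. In the group with the synj1+/- label the 2 listed above the lesion were higher and the 3 listed below it lower, all at low levels, and the part of neutrophils in the LCN2 values was not tested.

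OSMR, CD44, S1PR3 and CD109 encode proteins of the cell surface. OSMR (chr15:6813577-6874969, minus strand), the oncostatin M receptor that pairs with gp130, was at 25.8 FPKM in the group with the synj1+/+ label and 17.0 in the group with the synj1+/- label above the lesion, and at 32.4 and 16.8 below it. The log2 ratios were -0.57 and -0.91, so that OSMR was 1.49-fold lower above, just short of the fold, and 1.88-fold lower below. The level under the synj1+/- label was nearly the same at the 2 sites, and that under the synj1+/+ label was higher below, with the caution that the sites were normalized separately. Whether the ratios differ between the sites was not tested.

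IL6ST and STAT3, through which OSMR signals, were lower by less than OSMR at both sites. The gp130 list holds 15 genes for cytokines, receptors, JAK kinases, STAT3 and its target SOCS3, of which 12 were listed above the lesion and 10 below. All 12 were lower above, with a median log2 ratio of -0.20, and 8 of 10 were lower below, with a median of -0.19. IL6ST, which is gp130 itself, was at 34.3 and 31.8 FPKM above and 31.7 and 27.9 below, log2 ratios of -0.10 and -0.18. STAT3 was at 119.6 and 103 FPKM above and 126 and 109 below, log2 ratios of -0.21 and -0.21. SOCS3, a target of STAT3 that feeds back on the receptor, was at 25.8 and 18.7 FPKM above and 26.7 and 15.3 below, log2 ratios of -0.44 and -0.76. Past the fold were LIF above the lesion, at 7.81 and 3.26 FPKM or a log2 ratio of -1.05, and SOCS3 and IL6RA below it, all lower. CNTFR, the CNTF receptor and the most abundant of the list, was at 636 and 625 FPKM above and 647 and 664 below. OSM, the ligand of OSMR, was not listed at either site, nor were IL6 and IL11.

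CD44 (chr2:102811141-102901665, minus strand), the hyaluronan receptor, was at 211 FPKM in the group with the synj1+/+ label and 192 in the group with the synj1+/- label above the lesion, and at 176 and 128 below it. Its log2 ratios were -0.14 and -0.46, neither past the fold. Of 11 genes that make, cleave or link to hyaluronan or bind CD44, 8 were listed above the lesion, all lower with a median of -0.22 and none past the fold. Of the 9 listed below, 8 were lower, with a median of -0.28, and 2 were past the fold, SPP1 and CEMIP. SPP1, the osteopontin that binds CD44 and is made mainly by phagocytes after injury, was at 1038 and 870.1 FPKM above and 1866 and 1109 below. CEMIP, a hyaluronan-degrading protein, was at 10.5 and 5.98 FPKM below.

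S1PR3 (chr13:51408639-51422797, plus strand), a receptor of sphingosine 1-phosphate, differed little between the groups. It was at 12.4 and 11.0 FPKM above the lesion and 11.1 and 9.59 below it, log2 ratios of -0.16 and -0.20. None of the 8 listed genes of 9 in its pathway was past the fold at either site, and their medians were -0.06 above and 0.05 below. SPHK1, the kinase that makes sphingosine 1-phosphate, was at 64.8 and 50.9 FPKM above and 86.5 and 66.8 below, log2 ratios of -0.34 and -0.37. CD109 (chr9:78615546-78716253, plus strand), a membrane-anchored protein that binds TGF-beta, was near the bottom of the members at 6.26 and 4.29 FPKM above and 3.81 and 2.39 below. Its log2 ratios were -0.46 and -0.50. ASPG (chr12:112106679-112127559, plus strand), an asparaginase, was at 78.1 and 53.3 FPKM above and 88.7 and 61.3 below. Its log2 ratios of -0.54 and -0.53 were the closest to each other at the 2 sites among the members, and it was 1.46-fold and 1.44-fold lower.

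**Figure D2:**
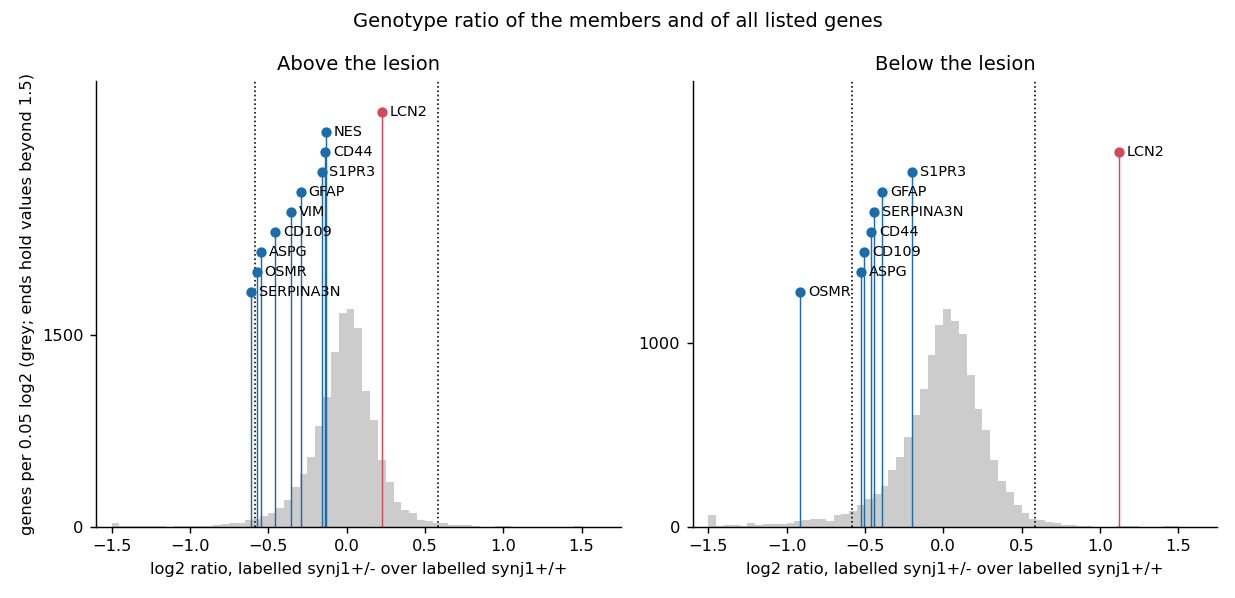
Log2 ratio of each listed member (labelled stems) over the distribution of all listed genes (grey bars, genes per bin of 0.05, the end bins holding values beyond 1.5), above (left) and below (right) the lesion; stem heights carry no value and dotted lines mark 1.5-fold. The members lie on the left flank of all genes, with a median of -0.32 above and -0.45 below, and LCN2 lies on the right at 0.23 and 1.12.

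Promoter sequences are shown for the member lowest by ratio above the lesion (SERPINA3N), the one with the closest ratios at the 2 sites (ASPG), the most abundant (GFAP) and one that differed little between the groups (S1PR3). Each is the 250 bases before the RefSeq gene start on GRCm38.p6, written 5′ to 3′ on the strand of the gene.
SERPINA3N, chr12:104406458-104406707, plus strand: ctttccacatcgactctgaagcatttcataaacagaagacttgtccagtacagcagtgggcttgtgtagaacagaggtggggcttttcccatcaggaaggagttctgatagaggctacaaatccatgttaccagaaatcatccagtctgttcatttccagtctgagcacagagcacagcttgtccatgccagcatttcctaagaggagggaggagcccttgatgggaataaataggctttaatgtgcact
ASPG, chr12:112106433-112106682, plus strand: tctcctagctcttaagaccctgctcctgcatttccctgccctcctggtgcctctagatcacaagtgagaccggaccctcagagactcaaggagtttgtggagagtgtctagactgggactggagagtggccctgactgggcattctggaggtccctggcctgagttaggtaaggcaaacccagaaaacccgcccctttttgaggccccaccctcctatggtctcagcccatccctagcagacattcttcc
GFAP, chr11:102897201-102897450, minus strand: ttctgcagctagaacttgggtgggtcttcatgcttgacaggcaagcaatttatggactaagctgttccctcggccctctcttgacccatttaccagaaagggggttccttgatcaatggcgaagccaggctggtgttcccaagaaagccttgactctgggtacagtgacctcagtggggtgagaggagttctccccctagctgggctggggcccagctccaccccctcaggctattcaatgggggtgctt
S1PR3, chr13:51408368-51408617, plus strand: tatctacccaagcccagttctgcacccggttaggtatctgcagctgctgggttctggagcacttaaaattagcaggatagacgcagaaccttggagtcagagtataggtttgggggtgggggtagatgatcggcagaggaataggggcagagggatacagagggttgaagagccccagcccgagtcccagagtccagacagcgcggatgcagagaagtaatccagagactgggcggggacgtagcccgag
RefSeq promoters were matched for 9 of the 10 members, all but CD109. They were searched on both strands for the letters of a STAT motif, TTCNNNGAA, and an AP-1 motif, TGANTCA, and a match would have been printed in capitals. Neither was found in any of the 9 windows, so no overlap between them arose. Over 32851 promoters of the same length, 7.02% held the STAT letters and 6.75% the AP-1 letters. The result says only that these letters are not in these windows.

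Most genes of 3 further lists of the reactive state were also lower under the synj1+/- label. Of 5 other genes induced in reactive astrocytes of any kind, 4 were listed above the lesion, 3 of them lower, and 5 below it, 4 of them lower, with medians of -0.34 and -0.65. HSPB1, a small heat shock protein and the most abundant of the list, was past the fold at both sites, at 261 and 157 FPKM above and 205 and 130.1 below. Below the lesion TIMP1, an inhibitor of metalloproteinases, was at 44.2 and 17.7 FPKM and CP, the copper-carrying ceruloplasmin, at 94.0 and 53.5, and both were past the fold. CXCL10, a chemokine, was the gene of the list that was higher at both sites, at 5.60 and 7.26 FPKM above and 5.12 and 5.78 below.

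Genes often called A1-type, which were defined in astrocytes after endotoxin, had a median log2 ratio of -0.14 above and -0.37 below, with 11 of 12 listed at each site. FKBP5, a co-chaperone of steroid receptors, was the gene past the fold above, at 13.7 and 7.47 FPKM. Below the lesion 4 were past the fold, all lower: SERPING1, the inhibitor of complement C1, at 68.9 and 22.7 FPKM, SRGN, the proteoglycan of blood cell granules, at 116 and 59.7, FBLN5, an elastic fibre protein, at 30.2 and 17.9, and FKBP5 at 14.5 and 9.16. H2-D1, an MHC gene that can share reads with its relatives and the most abundant of the list, was at 162 and 148 FPKM above and 223 and 195 below. Genes called A2-type, defined after ischemia, were lower for all 8 listed of 11 at both sites, with medians of -0.18 and -0.44. TGM1, a transglutaminase, was past the fold at both sites, at 17.3 and 9.86 FPKM above and 26.4 and 10.7 below. EMP1, a membrane protein, was at 33.2 and 27.5 FPKM above and 64.1 and 28.4 below, and S100A10, a calcium-binding family member and the most abundant of the list, at 188 and 185 above and 275 and 177 below.

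General astrocyte markers, some of which can also change in the reactive state, were mostly lower as well, with medians nearer 0 than those of the members. Above the lesion 12 of 13 were lower with a median log2 ratio of -0.14, and below the lesion 10 of 12 with a median of -0.09, and none was past the fold. AQP4 was at -0.29 and -0.40, close to the values of GFAP, whereas the glutamate transporter SLC1A2 was at -0.28 and -0.18 and the glutamine synthetase GLUL at -0.08 and -0.04. The summed level of the list was 10394 and 9204 FPKM above and 10211 and 9186 below. Taken relative to the median of these markers, 7 of 10 members were lower above the lesion with a median of -0.18, and 7 of 8 below it with a median of -0.36. CD44 and NES then stood at 0.0025 and 0.0088 above the lesion, level with the markers, and SERPINA3N at -0.47.

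**Figure D3:**
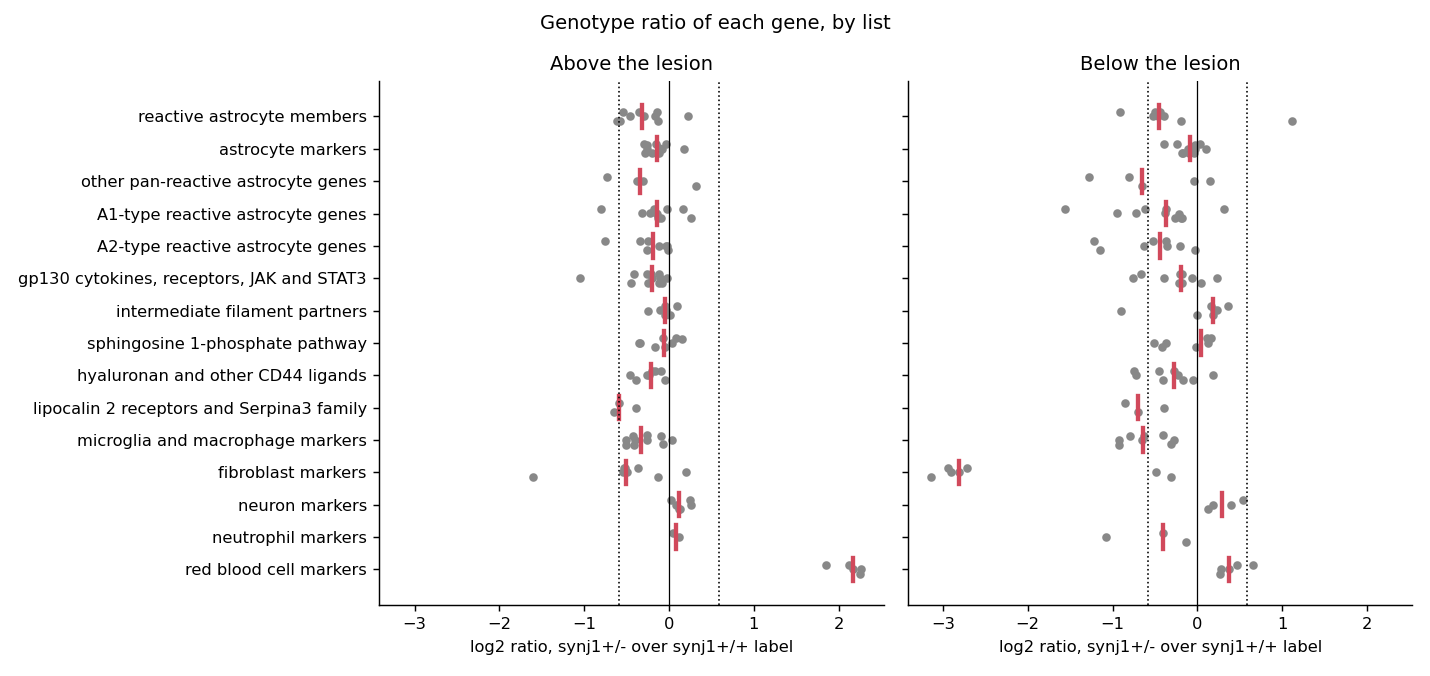
Log2 ratio of the group with the synj1+/- label over the group with the synj1+/+ label for each listed gene (grey points, spread vertically within a list only to separate them), by list, above (left) and below (right) the lesion; red bars are medians, dotted lines mark 1.5-fold. Above the lesion the median is -0.32 for the members, -0.14 for the astrocyte markers and 2.17 for the red blood cell markers; below it the lowest median is -2.81, for the fibroblast markers, and the highest 0.37, for the red blood cell markers.

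Markers of other cells differed between the same groups. Of 10 microglia and macrophage markers, 9 of 10 listed above the lesion were lower with a median of -0.33, and all 8 listed below were lower with a median of -0.64, with 5 past the fold. Their summed level was 873 and 709 FPKM above and 933 and 614 below. LGALS3 was at 186 and 97.3 FPKM, AIF1 at 26.0 and 13.2, and CD68 at 199 and 115 below the lesion. CD68 was the most abundant of the list there under the synj1+/+ label, and CSF1R, at 138 FPKM, under the synj1+/- label. Of 8 fibroblast markers, 7 were lower of 8 listed above with a median of -0.50, and all 7 listed below were lower with a median of -2.81. COL3A1 was at 68.9 and 6.91 FPKM, LUM at 21.7 and 1.94 and COL1A1 at 46.2 and 5.29 below the lesion. The most abundant of the list there was DCN under the synj1+/+ label, at 138 FPKM, and PDGFRA under the synj1+/- label, at 55.0. The summed level of the list was 333 and 249 FPKM above, mostly FN1, and 442 and 116 below, where FN1 was not listed. PDGFRA, which cells other than fibroblasts also make, was at 62.6 and 57.3 FPKM above and 68.3 and 55.0 below. Its log2 ratios were -0.13 and -0.31. Neuron markers went the other way: all 6 listed above and all 4 listed below were higher, with medians of 0.12 and 0.29, and SNAP25 was at 5238 and 6247 FPKM above and 5271 and 6928 below. All 5 red blood cell markers were higher at both sites, with a summed level of 248 and 1133 FPKM above and 629 and 825 below. FN1, the most abundant fibroblast marker above, was at 229 and 158 FPKM there. No listed marker of these cells was at 0 in a group. CD44, VIM, NES, OSMR, S1PR3, CD109, TIMP1, SRGN, SPP1, SERPING1, EMP1 and FBLN5 are among the genes also made by phagocytes, fibroblasts or vessel cells. The part of these cells in the values of the reactive astrocyte genes, and of the further lists of the reactive state, was not tested.

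The sites were set side by side within each label, although the authors normalized them separately and no test could be made. Over 12023 genes listed once at each site, the median log2 ratio of below over above was -0.0008 in the groups with the synj1+/+ label and 0.022 in the groups with the synj1+/- label. LCN2 was the member that differed most, at 1.72 and 2.61 on the log2 scale, beside 3.24% and 1.43% of all genes that were 1.5-fold or more higher below. S100A9 was higher below the lesion as well, at 2.77 and 2.91 FPKM above against 13.4 and 9.86 below. CD109 was past the fold and lower below the lesion in both labels, at -0.59 and -0.64, beside 1.36% and 0.832% of all genes, but at a level of at most 6.26 FPKM. CD44 was at -0.26 and -0.58, GFAP at -0.22 and -0.32 and S1PR3 at -0.14 and -0.18. ASPG was at 0.18 and 0.20, SERPINA3N at -0.05 and 0.12 and OSMR at 0.32 and -0.02.

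**Figure D4:**
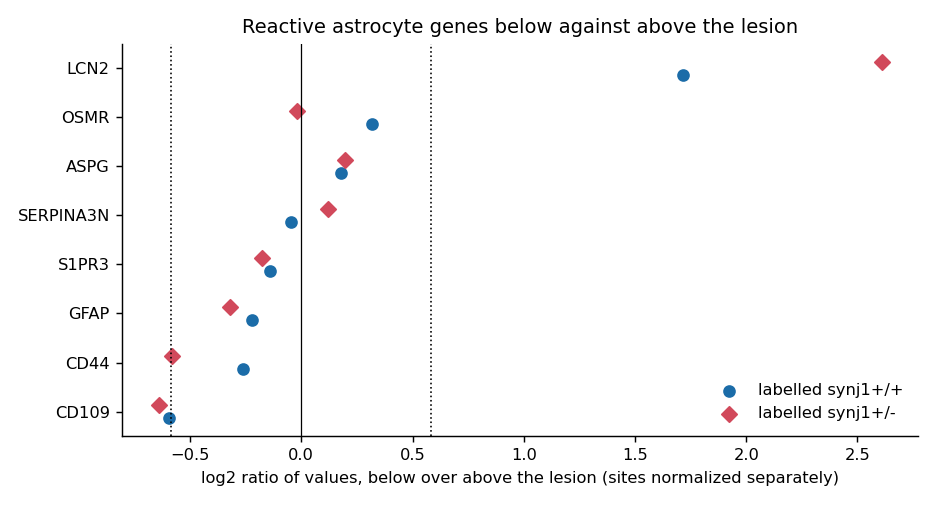
Log2 ratio of the values (FPKM plus 1) below over above the lesion for the 8 members listed at both sites, with a circle for the groups with the synj1+/+ label and a diamond for the groups with the synj1+/- label; dotted lines mark 1.5-fold. LCN2 stands apart at 1.72 and 2.61, and the other 7 members lie between -0.64 and 0.32.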

How the data were processed

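Total RNA of 12 spinal cord libraries in 4 groups was sequenced. The submitters' processing notes name STAR 2.5.4b, Cuffdiff 1.3.0 and GRCm38.p6, and the study's methods add that reads of each site were reduced at random to the smallest library of that site. The deposited table holds 1 FPKM value per gene and group, computed by the authors with upper quartile normalization. The lowest value is exactly 1 in each site, so the values were read as FPKM plus 1, and 1 was subtracted from printed levels. The annotation behind the values is not given in the sources used here, and the depth of single libraries is unknown from the table. Its other columns, and the whole of a shorter table, hold the authors' fold changes, p-values and q-values, which were not used.

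Groups were taken from the genotype and site in the labels. Log2 ratios of the deposited values were computed for all genes of a site, and 1.5-fold or more was taken as past the fold. The 10 members, their lists and the alternatives were chosen with earlier results of these data known. Genes named are the members, SYNJ1 and, in each list, the gene of highest level and up to 3 per site of largest change among genes past the fold with a value of at least 10; other genes, such as LIF, DES, SERPINA3M, CXCL10, STAT3 and S100A8, were named after their values were seen. Gene positions come from GENCODE for GRCm38, with 10 of 10 members matched by symbol, and promoters from RefSeq for GRCm38.p6. The calculations were tested on simulated data. Python 3.11.15, numpy 2.4.6, pandas 2.3.3 and matplotlib 3.10.9 were used.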

Additional observations from a re-analysis of the deposited data

How the results depend on the processing

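With 1 value per group, neither leaving out a replicate nor any error of a ratio could be computed. No paired analysis was possible because the table gives no values of single samples and the groups share no replicate number. The limit of 1.5-fold mattered most: at a log2 ratio of 0.32 in size, 5 members were lower above the lesion and 6 below, and at 2-fold 0 and 0, in place of 1 and 1. With 1 subtracted from the values the counts were 2 and 2, since OSMR above (-0.60) and CD109 below (-0.67) passed 1.5-fold. Centred on the astrocyte markers, an alternative chosen after seeing the data, 0 members were past the fold and lower above the lesion, and the median there was -0.18 in place of -0.32. The mean in place of the median was -0.29 below the lesion, with LCN2 included, against -0.45. With 9 added to the values, CD109 was no longer past the fold between the sites (-0.24 and -0.21 for the labels synj1+/+ and synj1+/-). Of 204 member ratios under 6 alternatives, 180 kept their direction and side of the fold. LCN2 was past the fold below the lesion under all 6.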

Other observations

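Cells that border the astrocytes were described by lists not used above. Of 5 ependymal markers, 5 were listed above the lesion and 4 below, with median log2 ratios of -0.16 and 0.31. TMEM212, a gene of ciliated cells, was higher at both sites, at 6.22 and 9.97 FPKM above and 2.63 and 6.99 below, in the order synj1+/+ then synj1+/-. FOXJ1, the regulator of cilia, was at 45.9 and 41.0 above and 40.8 and 44.9 below. It was the most abundant of the list except in the synj1+/- group above the lesion, where RARRES2 was at 43.4 FPKM. All 6 endothelial markers were higher above the lesion with a median of 0.14, and 4 of 6 were lower below it with a median of -0.14. CDH5, the cadherin of vessel junctions, was the endothelial marker past the fold, at 15.1 and 9.55 FPKM below. FLT1 was at 64.7 and 73.3 above and 69.4 and 77.2 below. It was the most abundant of the list except in the synj1+/+ group below the lesion, where CLDN5 was at 71.4 FPKM.

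Of 5 oligodendrocyte markers, 2 were listed at each site, with medians of -0.12 and 0.04, and MOBP was at 10915 and 10551 FPKM above and 10365 and 9723 below. Among Schwann cell markers, NCMAP, a gene of peripheral myelin, was at 7.49 and 14.6 FPKM above and 19.6 and 15.0 below, and PMP22 was the most abundant, at 925 and 831 above and 975 and 844 below. No difference in this section was tested.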
